A study of Homo sapiens with 11 samples.

Results

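TFF1, TFF3, MYC, XBP1, RARA, IGFBP4 and CXCL12 are 7 genes long used as examples of induction by estrogen, and every called peak of estrogen receptor (ER), glucocorticoid receptor (GR) and acetylated histone H3 (H3K27ac) around them was examined in Ishikawa, a line of human endometrial cancer cells. A peak was counted when it overlapped one of the gene bodies (hg19) or lay within 50 kb of one, and each peak was given to the nearest body. Of 90458 peaks in 8 lists, 115 met that rule. Chromatin immunoprecipitation and sequencing (ChIP-seq) had been done on cells kept in hormone-depleted medium, free of phenol red and with charcoal-treated serum. ER was mapped after 1 h of 100 nM dexamethasone plus 10 nM estradiol (the combination) and after 1 h of 10 nM estradiol alone. GR was mapped after 1 h of the combination and after 1 h of 100 nM dexamethasone alone. H3K27ac was mapped, by the treatment labels, after 8 h of the combination, of 10 nM estradiol, of 100 nM dexamethasone, and of the vehicle DMSO, although the protocol text shared by all samples gives 1 h. The ER and GR libraries from vehicle-treated cells and the control library were not analysed here. Each group held 1 library from 1 cell line, so differences between conditions have no replicate check, and no test between conditions was made.

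Estradiol is the natural ligand of ER, and dexamethasone is a synthetic ligand of GR. Both receptors are transcription factors that bind DNA as pairs, ER preferring the 5-base arms GGTCA and TGACC set 3 bases apart, and GR preferring arms of the form GNACA and TGTNC set 3 bases apart. H3K27ac marks active promoters and enhancers. Among the genes, TFF1 and TFF3 encode secreted trefoil peptides of mucous surfaces. MYC and XBP1 encode transcription factors, of cell growth and of the unfolded protein response. RARA encodes the retinoic acid receptor alpha, IGFBP4 a secreted protein that holds insulin-like growth factors away from their receptor, and CXCL12 a chemokine, the ligand of CXCR4. Much of what is known of their response to estrogen comes from breast cancer cells.

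RefSeq promoter sequences (GRCh38.p14, 250 bases before the gene start, in the direction of transcription) were matched by symbol for 4 of the 7 genes, and are shown because the 4 genes differ in whether any peak reached the gene start. TFF1, TFF3 and MYC are named only. Capitals mark each arm of the estrogen response element, GGTCA or TGACC, whichever strand is read. The XBP1 promoter is at chr22:28800570-28800819 on the minus strand, RARA at chr17:40308930-40309179 on the plus strand, IGFBP4 at chr17:40443200-40443449 on the plus strand, and CXCL12 at chr10:44385098-44385347 on the minus strand.
XBP1: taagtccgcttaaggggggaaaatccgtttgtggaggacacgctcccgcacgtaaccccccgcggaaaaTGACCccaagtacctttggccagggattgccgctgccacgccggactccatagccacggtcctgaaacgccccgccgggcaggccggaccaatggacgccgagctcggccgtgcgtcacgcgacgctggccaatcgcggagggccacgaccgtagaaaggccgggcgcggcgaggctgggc
RARA: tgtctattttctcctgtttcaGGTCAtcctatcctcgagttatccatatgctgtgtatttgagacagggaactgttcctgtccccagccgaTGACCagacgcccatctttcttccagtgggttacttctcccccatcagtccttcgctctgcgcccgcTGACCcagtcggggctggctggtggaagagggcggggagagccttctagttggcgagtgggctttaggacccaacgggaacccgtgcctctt
IGFBP4: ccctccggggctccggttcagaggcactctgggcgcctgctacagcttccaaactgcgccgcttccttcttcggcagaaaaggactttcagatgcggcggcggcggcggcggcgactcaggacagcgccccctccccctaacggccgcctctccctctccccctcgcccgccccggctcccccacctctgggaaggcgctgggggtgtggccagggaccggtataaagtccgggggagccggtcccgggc
CXCL12: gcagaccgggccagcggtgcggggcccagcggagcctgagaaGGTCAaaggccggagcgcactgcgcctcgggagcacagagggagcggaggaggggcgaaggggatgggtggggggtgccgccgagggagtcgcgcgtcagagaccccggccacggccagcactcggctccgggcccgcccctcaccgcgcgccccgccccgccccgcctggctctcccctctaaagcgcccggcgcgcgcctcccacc
No promoter of the 4 held a full estrogen response element (GGTCA and TGACC, 3 bases apart) or a full glucocorticoid response element (GNACA and TGTNC, 3 bases apart), searched on both strands. Over 35116 promoters of the same length in the same table, 0.0399% held the ER element and 0.327% the GR element. RARA held 3 single ER arms, at 229, 159 and 92 bases before the start. XBP1 held 1, at 181 bases, CXCL12 held 1, at 208 bases, and IGFBP4 held 0, while 32.6% of the 35116 promoters held at least 1. The promoters of CXCL12, IGFBP4 and XBP1 were rich in G and C (78%, 71.6% and 67.6%, with 31, 24 and 31 CpG), and that of RARA was nearer the median of all promoters (56.4% and 11 CpG, against a median of 58% and 11 CpG). These matches describe letters in the window only.

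The lists were of unequal length and depth. ER was called at 2382 sites with the combination, from 7625049 usable tags, and at 3560 with estradiol, from 8508828. GR was called at 1628 sites with the combination, from 5206574 tags, and at 1815 with dexamethasone, from 6353466. H3K27ac peaks numbered 20873 with the combination, 23888 with estradiol, 15192 with dexamethasone and 21120 with vehicle. Usable tags of those 4 libraries were 9657258 with the combination, 10852521 with estradiol, 9034395 with dexamethasone and 18508574 with vehicle. Redundant tags made up 22%, 19%, 33% and 18% in the same order. What these gaps contribute to a peak being listed or not was not tested. Fold enrichment and −log10 q below are the authors' own values for each peak, and a place is a peak's rank by −log10 q within its own list, so places in different lists show no change.

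Receptor sites were found near 4 of the 7 genes, RARA, IGFBP4, XBP1 and TFF1, and H3K27ac peaks near 4, RARA, IGFBP4, XBP1 and MYC. TFF3 and CXCL12 had no peak of any kind. The ER lists held 9 peaks with the combination and 12 with estradiol in these windows, the GR lists 3 with the combination and 1 with dexamethasone, and the H3K27ac lists 25 with the combination, 26 with estradiol, 17 with dexamethasone and 22 with vehicle. Per Mb of the 0.73 Mb searched, ER peaks were 12.3 with the combination and 16.4 with estradiol, against 0.882 and 1.32 over the 2.7 Gb genome size the authors used. GR peaks came to 4.11 per Mb with the combination and 1.37 with dexamethasone, against 0.603 and 0.672 genome-wide. H3K27ac peaks were denser as well, at 34.3, 35.6, 23.3 and 30.1 per Mb with the combination, estradiol, dexamethasone and vehicle, against 7.73, 8.85, 5.63 and 7.82. The genes were chosen as known estrogen targets, and windows around genes in general were not analysed here.

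**Figure D1:**
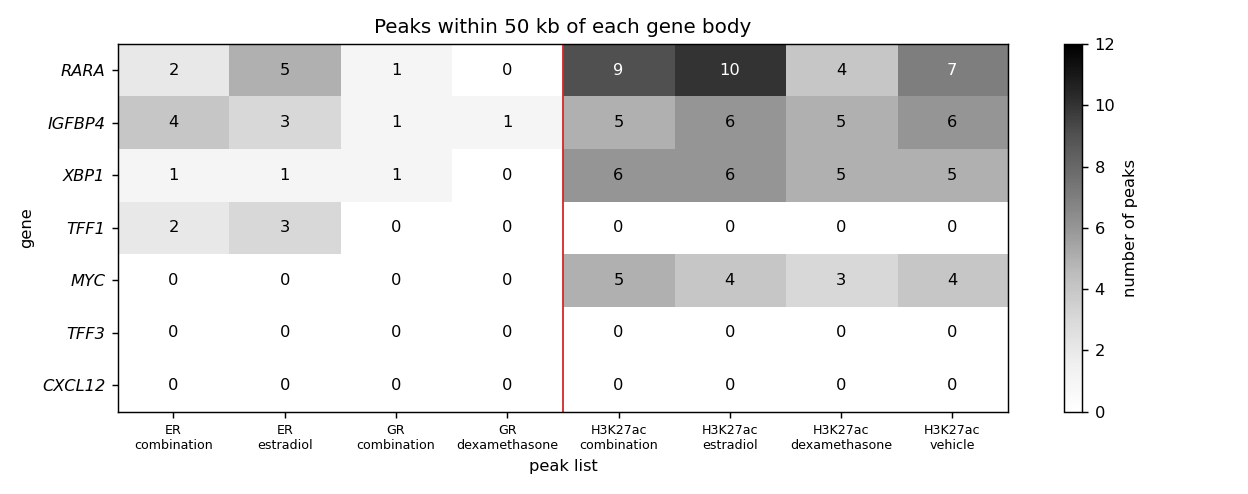
Number of called peaks within 50 kb of each gene body (rows) in each of the 8 peak lists (columns), with the receptor lists left of the red line and the H3K27ac lists right of it. RARA held the most estradiol ER peaks (5) and the most H3K27ac peaks (10 with estradiol), TFF1 held ER peaks and no H3K27ac peak, MYC the reverse, and TFF3 and CXCL12 were at 0 throughout.

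RARA (chr17:38465423-38513895, plus strand) carried the strongest ER site of the set. The peak lay 13.3 kb inside the gene, at chr17:38478616-38478861 with the combination (44.3-fold, −log10 q 121) and at chr17:38478632-38478853 with estradiol (42.5-fold, −log10 q 106.1). It ranked 48 of 2382 with the combination and 31 of 3560 with estradiol, within the top 2.02% and the top 0.871% of those lists. GR was called on the same spot with the combination, at chr17:38478687-38478783, as a modest peak (8.9-fold, place 1261 of 1628) with its summit 21 bp from that of ER. The nearest dexamethasone GR peak was 167 kb from the site. H3K27ac overlapped the ER peak in both treatments that contain estradiol: 2 peaks covering 1182 bp of the region chr17:38477633-38479440 with the combination and 1 peak covering 1753 bp with estradiol. The estradiol peak spanned the ER summit. The combination peaks, chr17:38477741-38478273 and chr17:38478792-38479440, lay on either side of the combination ER summit at 38478748. With dexamethasone and with vehicle no peak was listed there, the nearest lying 9.41 kb and 3.69 kb away.

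A second ER site, 5.5 kb inside RARA, was also in both lists, at chr17:38470857-38471039 with the combination (14.2-fold, place 1226 of 2382) and chr17:38470848-38471033 with estradiol (16.9-fold, place 1250 of 3560). The H3K27ac region around it, chr17:38470486-38471274, was listed with estradiol (789 bp) and vehicle (265 bp) and with neither the combination nor dexamethasone. Only the estradiol list held the other 3 ER sites of RARA, which were weak within it. They lay 2.3 kb (chr17:38467619-38467725, 10.5-fold, place 3081 of 3560), 2.6 kb (chr17:38467914-38468029, 10-fold, place 3195) and 23.3 kb (chr17:38488677-38488810, 11.5-fold, place 2786) from the start. The first pair are the 2 receptor sites of the whole set within 5 kb of a gene start. Both sat in the wide H3K27ac domain over the RARA start, which was listed in all 4 conditions.

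That domain, chr17:38465407-38470419, was the widest of any gene here. It was 1 peak of 4801 bp with the combination (up to 21.2-fold, place 1559), 1 of 5013 bp with estradiol (19.8-fold, place 2080) and 1 of 4828 bp with vehicle (12.9-fold, place 3421). The dexamethasone list broke it into 4 peaks that covered 2762 bp. The highest in fold was 10.7-fold (place 6795 of 15192), and the best placed was 9.4-fold (place 5180). Inside the gene, H3K27ac at 7.6 and 9.4 kb was listed with the combination, estradiol and vehicle, and not with dexamethasone. At 7.6 kb it covered 1418, 2664 and 2010 bp in those 3 lists, and at 9.4 kb 313, 701 and 388 bp. The region around the weak 23.3 kb ER site covered 624 bp with the combination, 2315 bp with estradiol and 786 bp with vehicle. Further stretches of 283, 510 and 511 bp, at 11.9, 32.5 and 36.2 kb, were in the estradiol list alone. A stretch 21 kb upstream of the gene covered 371 bp with the combination, 495 bp with estradiol and 342 bp with vehicle. In gene order (GRCh38.p14) that stretch lies on the CDC6 side of RARA, and whether it belongs to CDC6 was not analysed here. Apart from the domain over the start, no H3K27ac region near RARA was in the dexamethasone list.

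IGFBP4 (chr17:38599702-38613983, plus strand), further along the same chromosome, had its receptor sites in and beyond the gene. ER was called inside the body, 5.4 kb from the start, at chr17:38605021-38605188 with the combination (20.2-fold, place 841 of 2382) and chr17:38605025-38605181 with estradiol (23-fold, place 866 of 3560). The nearest H3K27ac peak of any list was 30.1 to 30.2 kb from this site, and no list had an H3K27ac peak at the IGFBP4 start, the nearest being 24.8 to 24.9 kb upstream. A second ER site with no H3K27ac within 1 kb lay beyond the gene, at chr17:38635945-38636164 with the combination (14.8-fold, place 1371) and chr17:38635969-38636120 with estradiol (15.8-fold, place 1721). The ER site of the gene with the highest −log10 q lay further out, about 46.8 kb from the start, with a lower fold enrichment than the site inside the body in both ER lists. It was the 1 site of the set called in all 4 receptor lists. ER was at chr17:38646136-38646634 with the combination (15.5-fold, −log10 q 63.5, place 345) and chr17:38646094-38646615 with estradiol (21.7-fold, −log10 q 67.1, place 340, the top 9.55%). GR was at chr17:38646121-38646554 with the combination (6.9-fold, place 1304 of 1628) and chr17:38646120-38646460 with dexamethasone (10-fold, place 1114 of 1815). The combination GR summit was 30 bp from the combination ER summit and 191 bp from the dexamethasone GR summit, so the GR calls overlapped without sharing a summit.

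The H3K27ac domain at this shared site, chr17:38644868-38649222, was among the strongest of every list. It ranked 219 of 20873 with the combination (4171 bp, up to 32.8-fold), 106 of 23888 with estradiol (3630 bp, 45.6-fold), 676 of 15192 with dexamethasone (1493 bp, 21.3-fold) and 417 of 21120 with vehicle (2767 bp, 19.9-fold). A second domain, chr17:38653365-38656900, was also in every list and covered 2997, 3536, 1290 and 2234 bp with the combination, estradiol, dexamethasone and vehicle. It held the 1 ER site of the set that only the combination list contained, chr17:38654702-38654833, a weak peak (10.2-fold, place 2138 of 2382). Another stretch of 821 bp, 43.7 kb from the start, was in the estradiol list alone. Upstream of the gene, a pair of regions at 26 and 25 kb was in every list. The farther one, chr17:38573215-38574204, covered 924 bp with the combination (place 2790 of 20873), 990 bp with estradiol (place 1580 of 23888), 330 bp with dexamethasone (place 13589 of 15192) and 696 bp with vehicle (place 2516 of 21120). In gene order (GRCh38.p14), IGFBP4 stands between TOP2A upstream and TNS4 downstream. The domains and ER sites beyond the gene thus lie on the TNS4 side, and the upstream pair on the TOP2A side. The hg19 bodies of these neighbours were not analysed here, so any of these peaks may lie inside them or at their starts. Which gene they serve was not measured.

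**Figure D2:**
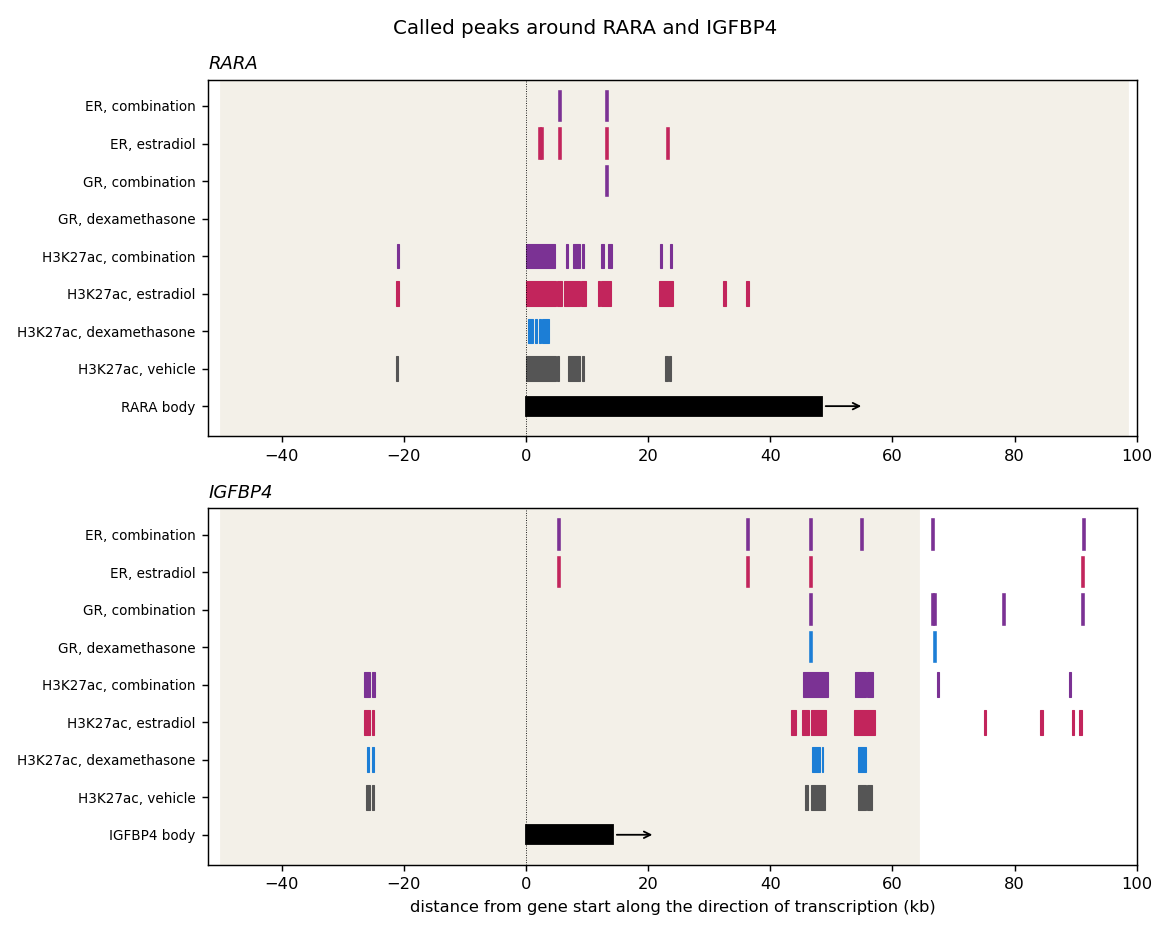
Called peaks around RARA (top) and IGFBP4 (bottom) by distance from the gene start in kb, positive along transcription, with 1 row per peak list, bars for H3K27ac peaks at their true width, fixed-width ticks for receptor peaks, a black bar for the gene body and shading for the body plus 50 kb on each side. At RARA, the shared ER and combination GR site at 13.3 kb has H3K27ac peaks in the combination and estradiol rows and none in the dexamethasone and vehicle rows. At IGFBP4, the site at 46.8 kb has a peak in every row and the gene start has none.

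XBP1 (chr22:29190548-29196560, minus strand) had a single receptor site, 13.4 kb upstream of its start, with ER and GR almost superimposed. ER was called at chr22:29209788-29210003 with the combination (30.2-fold, −log10 q 62.8, place 353 of 2382) and at chr22:29209807-29209996 with estradiol (23.6-fold, −log10 q 45, place 802 of 3560). GR was called with the combination at chr22:29209882-29209978 (13.2-fold, place 988 of 1628), its summit 5 bp from that of ER, and the nearest dexamethasone GR peak was 637 kb away. H3K27ac was called on both sides of the site with the combination and with estradiol. The estradiol peaks lay clear of the ER peaks. The outer combination peak overlapped the combination ER and GR peaks and covered both their summits. The flank nearer the gene, chr22:29208968-29209754, was 787 bp with the combination (15.7-fold, place 3918 of 20873) and 355 bp with estradiol (8.4-fold, place 17580 of 23888). The outer flank, chr22:29209899-29210495, was 597 bp with the combination (16.7-fold, place 3399) and 323 bp with estradiol (7.1-fold, place 20769). The dexamethasone and vehicle lists had neither flank, and their nearest peaks were 4.06 and 4.08 kb from the site.

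Of the 5 other H3K27ac regions around XBP1, 2 were in all 4 lists. The region over the gene start, chr22:29195128-29197324, covered 2057 bp with the combination, 2106 bp with estradiol, 742 bp with dexamethasone and 1685 bp with vehicle. A domain 18.5 kb upstream, chr22:29213732-29216354, was the widest near the gene and was also in all 4 lists, at 2623, 1819, 1175 and 1575 bp. Beside it, a weak 560 bp stretch at 16.7 kb upstream was in the combination list alone (7.3-fold, place 19464 of 20873). Beyond the 3′ end of the gene, 27.7 kb from the start, a small region was listed with estradiol (326 bp) and vehicle (276 bp) and with neither other treatment, and a 292 bp region at 27.3 kb was in the estradiol list alone. In gene order (GRCh38.p14) both lie on the CCDC117 side of XBP1, and whether they belong to CCDC117 was not analysed here. XBP1 was the 1 gene of the 4 whose H3K27ac peaks covered more sequence with the combination, 6624 bp, than with estradiol, 5221 bp.

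TFF1 (chr21:43782391-43786644, minus strand) had ER without H3K27ac. The first site, 10 kb upstream, was at chr21:43796525-43796683 with the combination (12.7-fold, −log10 q 18.2, place 1714 of 2382) and chr21:43796520-43796683 with estradiol (21-fold, −log10 q 39.5, place 958 of 3560). The second, 22.8 kb upstream, was at chr21:43809331-43809536 with the combination (10-fold, place 2244) and chr21:43809349-43809532 with estradiol (17.3-fold, place 1443). One more site, 24.4 kb upstream at chr21:43810959-43811097, was in the estradiol list alone (16.7-fold, place 1620). The combination peaks stood at 72% and 94.2% from the top of their list and the estradiol peaks at 26.9% to 45.5% from the top of theirs, which is longer, so these places measure no change in binding. The nearest H3K27ac peak to the TFF1 body was 162 kb away with the combination, 351 kb with estradiol, 163 kb with dexamethasone and 163 kb with vehicle, and the nearest GR peak was 365 kb away in both GR lists. By gene order these upstream sites lie on the TMPRSS3 side, and whether they fall inside that gene was not analysed here. No peak was listed at the TFF1 start, where an estrogen response element is well known from breast cancer cells. TFF3 (chr21:43731777-43735761, minus strand), which lies in the same gene cluster, had no peak within 50 kb, and its nearest ER site was the first TFF1 site, 60.8 kb from its body in both ER lists.

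MYC (chr8:128748315-128753680, plus strand) had H3K27ac at its start and no receptor site in its window. The region over the start, chr8:128747012-128749875, covered 1848 bp with the combination (up to 12.6-fold, place 6408), 2852 bp with estradiol (19.4-fold, place 4335), 864 bp with dexamethasone (11.5-fold, place 6086) and 2436 bp with vehicle (12.3-fold, place 6292). A region 24.6 kb downstream of the start was in every list, at 1218, 1127, 681 and 934 bp with the combination, estradiol, dexamethasone and vehicle. Of 2 small flanks of the start, one at 1.6 kb upstream was listed with the combination (323 bp) and estradiol (284 bp), and one at 1.9 kb downstream with estradiol alone (405 bp).

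CXCL12 (chr10:44865601-44880545, minus strand) was bare in every list. Its nearest ER peak was 289 kb from the body with the combination and 542 kb with estradiol, its nearest GR peak 289 kb with both treatments, and its nearest H3K27ac peak 523 kb with the combination, 523 kb with estradiol, 915 kb with dexamethasone and 721 kb with vehicle. Of the 4 genes whose promoters are shown, the merged H3K27ac regions over the starts of RARA and XBP1 held peaks in all 4 conditions. IGFBP4 and CXCL12 had no such region. The start base itself was inside an estradiol peak at RARA and XBP1, and inside a combination peak at XBP1. At RARA the combination peak began 10 bp from it. With vehicle the nearest peaks were 45 bp (RARA) and 32 bp (XBP1) from the start, and with dexamethasone 261 and 311 bp.

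**Figure D3:**
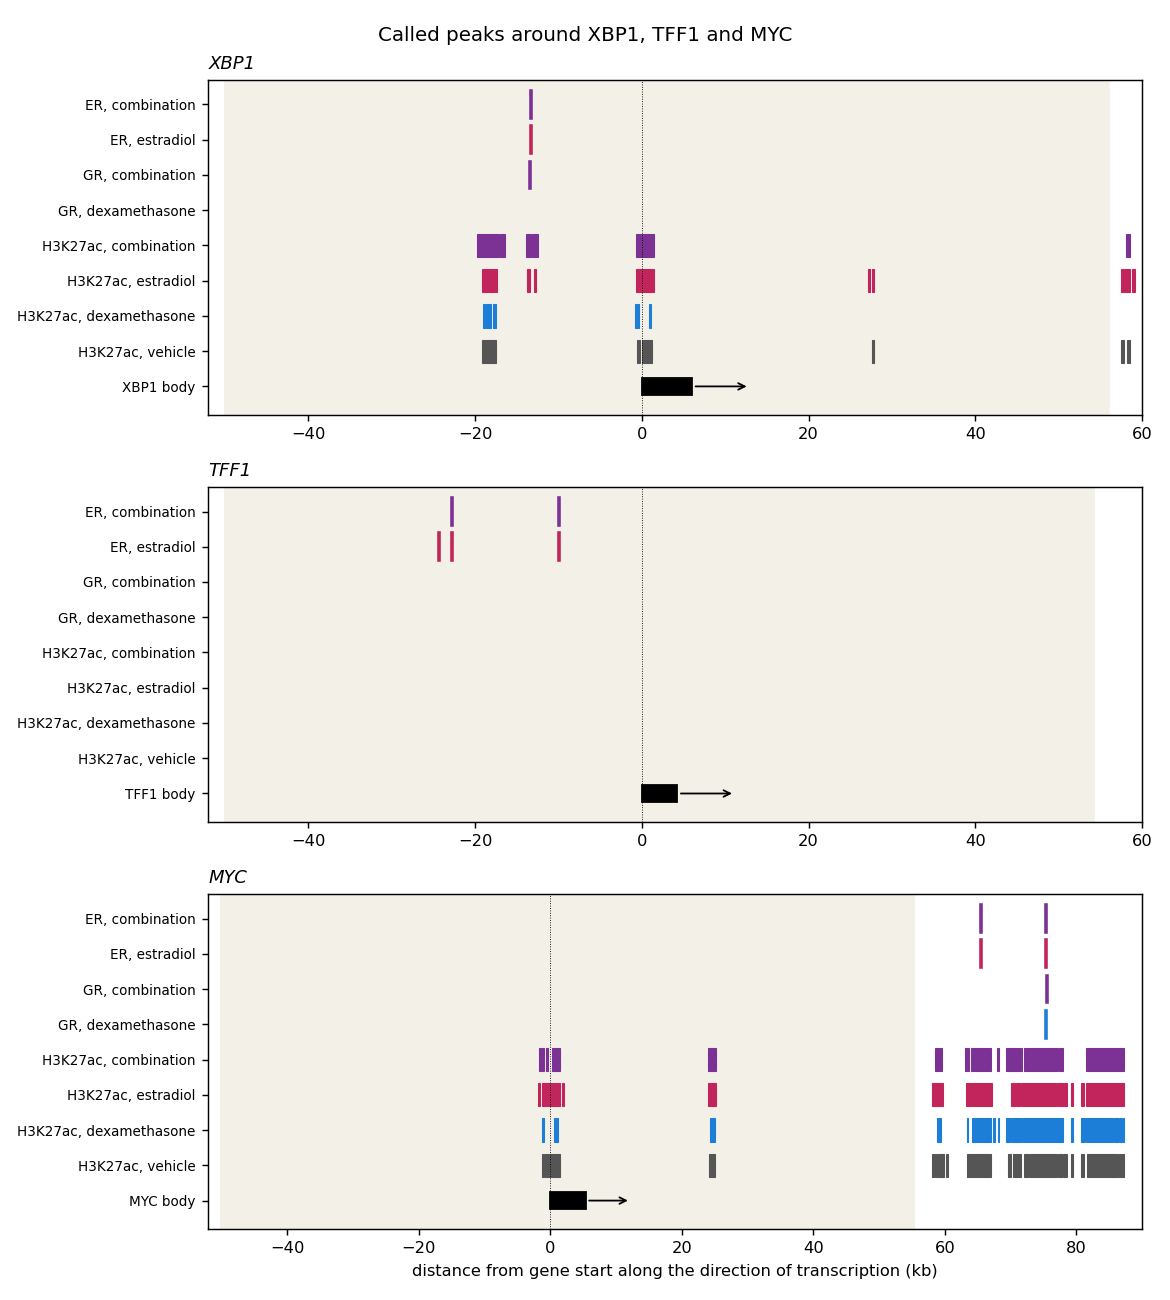
Called peaks around XBP1, TFF1 and MYC (top to bottom), drawn by distance from the gene start in kb along transcription, with H3K27ac peaks as bars at true width, receptor peaks as fixed-width ticks and the body plus 50 kb shaded. XBP1 has ER in both lists and combination GR at 13.4 kb upstream. H3K27ac lies on both sides of them in the combination and estradiol rows, and the outer combination peak overlaps them. TFF1 has ER ticks in otherwise empty rows, and the MYC window holds H3K27ac only, with receptor ticks at 65.5 to 75.5 kb, outside the shading.

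The 50 kb limit decided what was counted at MYC and IGFBP4. Inside it, the farthest peaks of all lists lay 39.4 to 41.5 kb from a body for H3K27ac, and the farthest receptor peak, at IGFBP4, lay 40.7 kb away. Just outside, at 52.6 kb from IGFBP4, came a dexamethasone GR peak that was strong in its list (34.3-fold, place 157 of 1815), with combination GR at the same distance (18.1-fold, place 335 of 1628). Combination ER at 52.3 kb (14.8-fold, place 1360 of 2382) overlapped another combination GR peak, at 52.2 kb (14.5-fold, place 862). At 76.9 kb, ER was called with the combination (25-fold, place 553) and with estradiol (26.7-fold, place 602 of 3560), with combination GR on it (11.6-fold, place 1210). Outside the MYC window, ER was called 65.6 and 75.4 kb from the start with the combination (7-fold and 6.6-fold, places 2284 and 2347 of 2382) and 65.5 and 75.4 kb from it with estradiol (13.2-fold and 12.8-fold, places 1941 and 2065 of 3560). GR was called at the farther of these sites with the combination (8.3-fold, place 1127 of 1628) and with dexamethasone (6.6-fold, place 1646 of 1815). There the H3K27ac peaks were very strong in every list, at places 75 with the combination, 140 with estradiol, 92 with dexamethasone and 146 with vehicle, and were 4983, 5272, 6113 and 4036 bp wide.

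Across the genes, the receptor peaks merged into 13 sites. Of these, 5 were ER sites of both ER lists, 2 (XBP1 and the strong RARA site) added combination GR, 1 (IGFBP4) was in all 4 receptor lists, 4 were ER with estradiol alone and 1 was ER with the combination alone. Of the 13 sites, 6 lay inside a gene body. How all merged receptor sites of the series divide among these patterns, or how many lie in gene bodies, was not computed. Among 9 combination ER peaks, 8 were also called with estradiol (88.9%, 95% interval 51.8 to 99.7), against 91.9% of the whole list. In the other direction, 8 of 12 estradiol ER peaks were also called with the combination (66.7%, 34.9 to 90.1), against 61.8%. Both shares were close to those of the lists. The intervals are exact Clopper-Pearson intervals over peaks and contained the list's value. They cover counting error only and treat peaks as independent, although several lie close together at the same gene. These intervals, and those below, may therefore be too narrow.

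**Figure D4:**
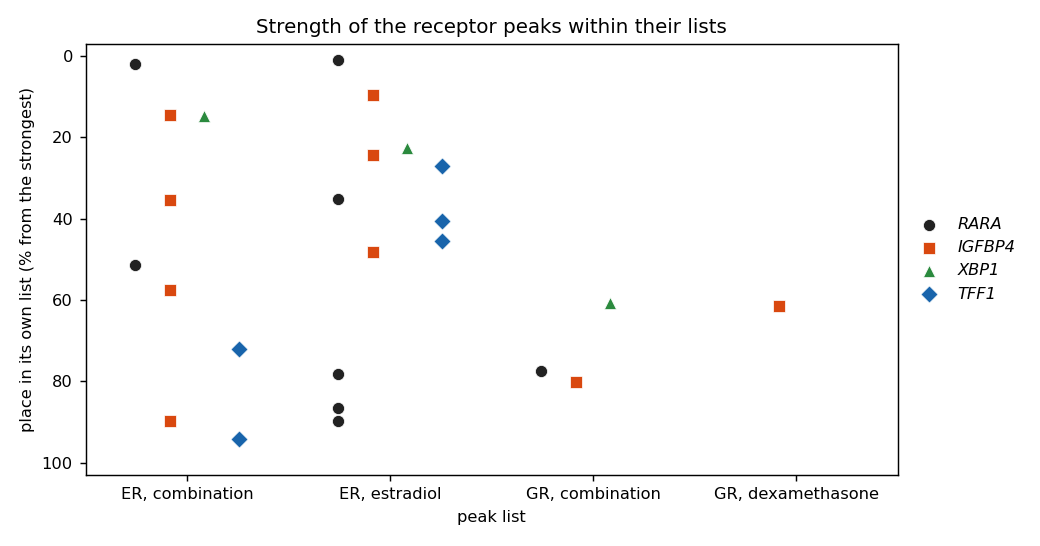
Place of each receptor peak in its own list, as percent from the strongest (0 at the top), for the 4 receptor lists and the 4 genes with receptor peaks. The RARA site at 13.3 kb stands at 2.02% of the combination ER list and 0.871% of the estradiol ER list, whereas all 4 GR peaks stand between 60.7% and 80.1% of theirs.

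All 3 combination GR peaks lay on a combination ER peak (interval 29.2 to 100%), against 47.2% of the whole list. With so few peaks, the interval spans most values. Of those 3, 1 was also called with dexamethasone (33.3%, 0.84 to 90.6), against 63.1% of the list, and the 1 dexamethasone GR peak was also called with the combination, as were 56.8% of its list. Seen from ER, 3 of 12 estradiol ER peaks lay on a combination GR peak (25%, 5.49 to 57.2), against 19.7%, and 1 of 12 on a dexamethasone GR peak (8.33%, 0.211 to 38.5), against 10%. The shares of ER peaks on GR were thus near those of the list. The GR peaks of the set were not strong ones, at places from 60.7% to 80.1% of their lists.

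Acetylation was called at the estradiol ER sites about as often as at such sites in general. Of 12 sites, 5 overlapped an H3K27ac peak with the combination (41.7%, 15.2 to 72.3), against 46.5% of all estradiol ER sites. With estradiol it was 6 (50%, 21.1 to 78.9), against 50.6%, with dexamethasone 3 (25%, 5.49 to 57.2), against 27.5%, and with vehicle 4 (33.3%, 9.92 to 65.1), against 36.8%. Counting the 13 merged sites, 5 had no H3K27ac peak within 1 kb in any list, the 3 at TFF1 and 2 at IGFBP4. Another 4 overlapped H3K27ac in all 4 lists, at RARA and IGFBP4. At 2 sites, the strong RARA site and the XBP1 site, H3K27ac within 1 kb was in the combination and estradiol lists and in neither other list. Both also carried combination GR without dexamethasone GR. The shares of these patterns over all merged receptor sites were not computed, so the counts among the 13 have no background beside them. Any link between GR and acetylation at these 2 sites was not tested.

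H3K27ac peaks of the 4 lists merged into 26 regions near the genes, of 27111 in all. A region listed with a treatment and not with vehicle is called gained here, and the reverse lost, which describes lists and not levels. With the combination, 5 of 26 were gained (19.2%, 6.55 to 39.4), against 14.9% of all regions, and 2 lost (7.69%, 0.946 to 25.1), against 15.1%. With estradiol, 10 of 26 were gained (38.5%, 20.2 to 59.4), against 21.8%, and 0 lost (upper limit 13.2%), against 4.6%. That gained count was 4 with the H3K27ac lists cut to equal length and 3 in the stronger 50% of each list. The share gained over all regions was not computed at those settings, so these counts have no background beside them. With dexamethasone, 0 were gained (upper limit 13.2%), against 10.8%, and 6 lost (23.1%, 8.97 to 43.6), against 35.3%. Of the 10 gained with estradiol, RARA had 4, XBP1 3, MYC 2 and IGFBP4 1, and of the 6 lost with dexamethasone RARA had 5 and XBP1 1. These counts go by the nearest of the 7 bodies, so a region at a neighbouring gene can be among them. The regions gained with estradiol were 283 to 1808 bp wide, and joining peaks within 1 kb brought their number to 5. By pattern, 9 of the 26 regions were in all 4 lists, 6 with estradiol alone, 4 with the combination, estradiol and vehicle, 4 with the combination and estradiol, 2 with estradiol and vehicle, and 1 with the combination alone. Over all 27111 regions, those patterns held 7516, 3899, 5699, 1447, 3049 and 1170 in the same order. Near the genes, only regions listed in all 4 conditions were in the dexamethasone list. The like share over all regions in the dexamethasone list was not computed. The 10.8% of all regions gained with dexamethasone lies below the upper limit of 13.2% for the 26.

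The length covered by H3K27ac peaks gave the same order at RARA, IGFBP4 and MYC, longest with estradiol and shortest with dexamethasone. Over all 7 windows it was 27254 bp with the combination, 34296 bp with estradiol, 9635 bp with dexamethasone and 21567 bp with vehicle. Relative to vehicle that was 1.26, 1.59 and 0.447 for the combination, estradiol and dexamethasone, and the whole lists gave 1.13, 1.35 and 0.69. At RARA the peaks covered 8709 bp with the combination, 15034 bp with estradiol, 2762 bp with dexamethasone and 8619 bp with vehicle, the dexamethasone ratio of 0.32 being the lowest of the 4 genes. IGFBP4 had 8532, 9373, 3411 and 6042 bp, and MYC 3389, 4668, 1545 and 3370 bp, in the same order of treatments. At XBP1 the order began differently, with 6624 bp for the combination, 5221 for estradiol, 1917 for dexamethasone and 3536 for vehicle. The length with the combination was 1.87 times that with vehicle at XBP1, 1.41 times at IGFBP4, and 1.01 times at RARA and at MYC.

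Mean fold enrichment of the peaks near these genes was 12.3 with the combination, 13.5 with estradiol, 9.68 with dexamethasone and 10.4 with vehicle, against 11.8, 13.4, 11.9 and 11.2 over the whole lists. Their mean width was 1090, 1320, 567 and 980 bp in the same order, against 971, 1010, 816 and 850 bp. In the dexamethasone list the peaks near the genes were thus narrower and lower than that list's mean. The dexamethasone ratio of covered length depended on the window: 0.418 within 20 kb of the bodies, 0.447 within 50 kb and 0.663 within 100 kb, where it stood beside the list's 0.69. With all H3K27ac lists cut to the 15192 strongest peaks, it was 0.47 near the genes and 0.792 over the lists. Within 100 kb the ratios for the combination and estradiol, 1.14 and 1.38, also stood beside the lists' 1.13 and 1.35. The dexamethasone library had the highest redundancy and the fewest usable tags, 9034395, close to the 9657258 of the combination. Vehicle, to which every ratio refers, had the most, 18508574. The part of depth or redundancy in these lengths was not tested.

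**Figure D5:**
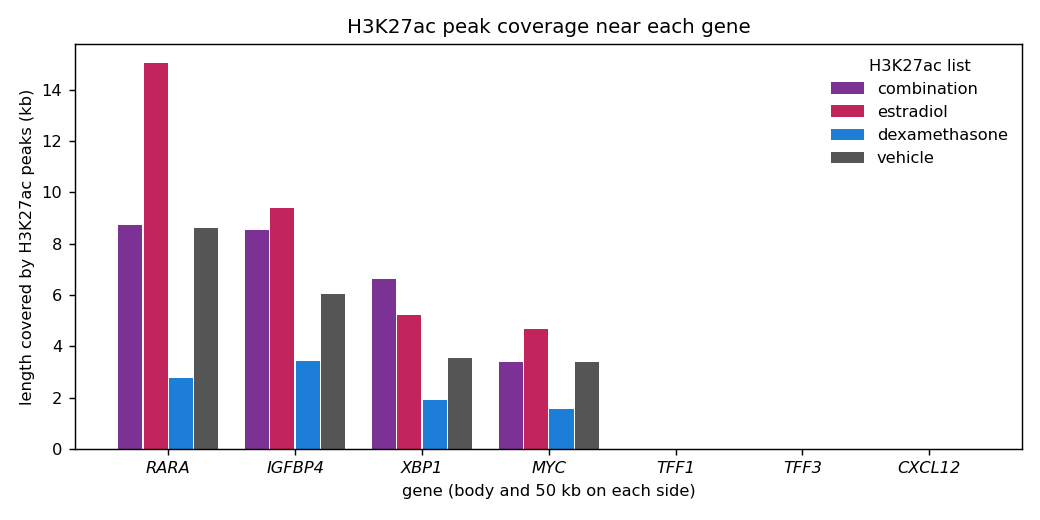
Length covered by H3K27ac peaks, in kb, within each gene body plus 50 kb on each side, with 1 bar per H3K27ac list and 1 library per bar. Dexamethasone has the shortest bar at each of the 4 genes with peaks, estradiol the longest at RARA, IGFBP4 and MYC, and the combination the longest at XBP1.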

How the data were processed

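The submitters' processing notes name hg19, Bowtie 1.1.2 and MACS2 2.1.0.20140616. Peaks of each of the 8 lists were called against a control with a p-value threshold of 1e-10, keeping at most 1 tag per position and scaling down whichever library was larger, per the file headers. The control behind a list is known only from its tag totals (3479280 for ER, 5735043 for GR, 14002417 for H3K27ac), and its sample label names both input and IgG. The authors deposited, per peak, 1-based positions in bp, the pileup as a signal, the −log10 p-value and −log10 q-value, and the fold enrichment as a ratio of pileup to local background. The headers say that q-values were not calculated, but the deposited column holds values, and it served only to rank peaks within a list.

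Computed here, with Python 3.11.15, pandas 2.3.3, numpy 2.4.6 and scipy 1.17.1, were the members within 50 kb of each body, overlaps of at least 1 bp, merged H3K27ac regions and covered lengths. The windows of TFF1 and TFF3 and those of RARA and IGFBP4 overlap, which left 5 windows. The overlap code was tested on simulated data. With 1 library per group no p-value was computed. The members, lists and settings were chosen with earlier results of these data known. All 7 genes are named. Of the sites, those in a body or within 5 kb of a start, the strongest per list and gene, and regions gained or lost at a receptor site were to be named, and the remaining receptor sites were added because they are few. The strands of TFF1, TFF3 and MYC are textbook knowledge. Exon positions and the bodies of neighbouring genes in hg19, and a wider list of estrogen-induced genes, were not analysed here. Settings tried were windows of 20 and 100 kb, stronger 50% lists, equal-length H3K27ac lists, summits within 100 bp, intervals within 1 kb, and joined regions. H3K27ac within 1 kb of ER sites and the covered-length ratios were added after seeing the data.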

Additional observations from a re-analysis of the deposited data

How the results depend on the processing

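No paired analysis was possible because each group holds 1 library and no test was made between conditions. The counts are small, so most settings moved some of them. Within 20 kb, the combination ER peaks numbered 5 (all 5 also called with estradiol, and 5 estradiol peaks also called with the combination), dexamethasone GR peaks 0, the GR overlaps between treatments 0 in both directions, estradiol ER on dexamethasone GR 0, and regions lost with the combination 1. Within 100 kb, combination GR peaks numbered 8 (3 also called with dexamethasone, 6 on combination ER) and dexamethasone GR peaks 3 (3 also called with the combination). There, 5 estradiol ER peaks lay on combination GR and 2 on dexamethasone GR, and regions gained and lost numbered 10 and 7 with the combination, 17 and 1 with estradiol, and 2 and 10 with dexamethasone. In the stronger 50% of each list, combination ER peaks numbered 4, with 4 overlaps between the ER lists in each direction. Both GR lists then held 0 peaks near the genes, every overlap with GR was 0, and gains numbered 3 with the combination and 3 with estradiol, with 1 lost with the combination. Counting summits within 100 bp as shared gave 0 for the GR overlap in both directions and 0 for estradiol ER on dexamethasone GR. With equal-length H3K27ac lists, 4 regions were gained with estradiol and 1 lost with the combination. Joining peaks within 1 kb gave 2 gained and 1 lost with the combination, 5 gained with estradiol and 3 lost with dexamethasone. The cause of these shifts was not tested beyond the construction of each setting, which changes the sequence searched or the number of peaks. Counting intervals within 1 kb as shared moved none of the 7 overlaps by more than 1.5 times. The covered-length ratios kept their side of 1 under every window and list length tried: 1.14 to 1.28 for the combination, 1.38 to 1.6 for estradiol, and 0.351 to 0.663 for dexamethasone. The whole lists lay on the same sides of 1. Within 100 kb the ratios stood beside those of the lists, at 1.14 against 1.13, 1.38 against 1.35 and 0.663 against 0.69 for the same treatments. Depth limits what an empty window shows: a gene without a listed peak is a gene without a call at a p cutoff of 1e-10.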
